A study of Mus musculus with 8 samples.

Results

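The monocyte and macrophage markers described here are 7 genes, Cd68, Lyz2, Ms4a6b, Ms4a6c, Clec4e, Adgre1 and Tmem176b, out of 12294 measured in leukemic progenitor cells of the mouse. They were picked by symbol with their values in these libraries already known, so their levels and differences are given as a description. Where markers are said to be called in a test over all genes, nothing is read from those calls. All 7 had a value in every library, and none sat at the lowest value of a library. The question was how these markers stood in progenitors from mice given an inhibitor of mutant IDH1, azacitidine, or both.

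Mice had been transplanted with leukemic cells that the labels call I1DN, a name they do not expand, and were treated for 5 days. The AG120_AZA mice received both drugs, the AG120 mice AG-120 (ivosidenib, which blocks mutant IDH1), the AZA mice azacitidine (a nucleoside that, built into DNA, traps DNA methyltransferases), and the Vehicle mice the carrier without either drug. All 4 groups carried the same leukemia, and the strain, sex and age of the mice are not in the labels used here. From these mice, cKit-positive, CD11b-negative cells were sorted. In all, 8 libraries, 2 per group, were made by QuantSeq, a method that counts mRNA by reads from the 3′ end. Bisulfite sequencing, which the design also names, was not analysed here.

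Monocytes arise in the bone marrow from progenitors that lose cKit and gain CD11b as they mature, and they give rise to part of the macrophages of tissues. Cd68 encodes a heavily glycosylated protein of late endosomes and lysosomes, and Lyz2 encodes lysozyme M, an enzyme that cuts bacterial cell walls. Ms4a6b and Ms4a6c belong to a family of membrane proteins that cross the membrane several times, Clec4e encodes Mincle, a C-type lectin receptor for mycobacterial glycolipids, Adgre1 encodes F4/80, an adhesion G protein-coupled receptor used to stain mouse macrophages, and Tmem176b encodes a membrane protein of endosomes found in macrophages and immature dendritic cells. Several are not restricted to monocytes: Lyz2 and Clec4e are also made by neutrophils, and F4/80 also marks mouse eosinophils.

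The 7 genes lie on 5 chromosomes of the GRCm38 (mm10) build, where GENCODE M21 annotates each as protein coding. Ms4a6c (chr19:11469366-11482192) and Ms4a6b (chr19:11516512-11531256) are neighbours on the plus strand of chromosome 19. Clec4e (chr6:123281789-123289870) and Tmem176b (chr6:48833818-48841496) lie far apart on the minus strand of chromosome 6, Cd68 (chr11:69664213-69666153) and Lyz2 (chr10:117277331-117282321) are also on the minus strand, and Adgre1 (chr17:57358691-57483527) is on the plus strand. Tmem176b overlaps Tmem176a on the opposite strand, at the 5′ ends of both genes. Ms4a6b overlaps the gene model Gm19261, and Ms4a6c overlaps BE692007. Counting by strand is not stated, so any reads over the shared stretches cannot be assigned.

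A 3′-end assay rests on the last bases of a transcript, so these were searched for copies elsewhere in the annotated transcripts. Of the 451 words of 50 bases in the last 500 bases of the longest coding transcript, Lyz2 shared 76 with Lyz1, its near-identical neighbour, which was not measured in the table used here. Ms4a6c shared 62 with Ms4a6b, Prdm11 and the gene models 1700086O06Rik and Gm44997. The other 5 genes shared none. Levels of Lyz2 and Ms4a6c are uncertain to that extent, and how reads that match several places were handled is not stated.

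The bases before the starts of Ms4a6b and Ms4a6c are shown because these neighbours, both lower in every library with AG120, are alike in sequence there. RefSeq (GRCm38.p6) holds a promoter entry for 6 of the 7 markers, in 8 windows of 250 bases before a start, and Adgre1 is named only. The stretch shown runs from 250 to 107 bases before the start for Ms4a6b (chr19:11518309-11518452, plus strand) and from 250 to 3 bases before the start for Ms4a6c (chr19:11469118-11469365, plus strand). The bases shown lie in no annotated exon of the plus strand, and exons of the minus strand were not checked. The Ms4a6b stretch lies inside the gene span, since an annotated transcript starts upstream of the RefSeq start used. Capitals mark the 116 bases that are identical in a local alignment of 146 columns, 12 of them gaps, which is an identity of 79.5%.
Ms4a6b: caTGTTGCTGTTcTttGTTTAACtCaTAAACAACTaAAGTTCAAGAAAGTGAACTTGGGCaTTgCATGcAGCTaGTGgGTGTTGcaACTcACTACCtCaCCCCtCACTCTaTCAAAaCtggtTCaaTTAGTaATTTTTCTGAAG
Ms4a6c: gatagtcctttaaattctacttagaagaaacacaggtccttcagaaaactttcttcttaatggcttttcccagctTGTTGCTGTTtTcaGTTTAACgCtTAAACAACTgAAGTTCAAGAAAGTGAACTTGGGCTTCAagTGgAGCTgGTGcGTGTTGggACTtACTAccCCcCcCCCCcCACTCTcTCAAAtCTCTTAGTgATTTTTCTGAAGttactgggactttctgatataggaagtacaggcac
The windows of Cd68 (chr11:69666171-69666420, minus strand) and Clec4e (chr6:123289872-123290121, minus strand) are shown because they held matches to the binding motifs of myeloid transcription factors, which are in capitals.
Cd68: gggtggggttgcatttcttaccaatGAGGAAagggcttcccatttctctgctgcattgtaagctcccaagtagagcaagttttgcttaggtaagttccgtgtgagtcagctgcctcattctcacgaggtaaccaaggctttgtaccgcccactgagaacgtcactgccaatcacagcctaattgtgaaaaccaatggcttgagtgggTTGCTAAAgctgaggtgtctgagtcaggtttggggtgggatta
Clec4e: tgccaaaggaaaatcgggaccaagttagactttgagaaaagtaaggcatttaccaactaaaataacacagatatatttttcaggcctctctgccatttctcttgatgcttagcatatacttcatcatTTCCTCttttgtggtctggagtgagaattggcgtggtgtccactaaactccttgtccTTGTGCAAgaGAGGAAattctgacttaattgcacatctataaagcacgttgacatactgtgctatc
On both strands 3 motifs were searched: GAGGAA, the core bound by PU.1 (encoded by Spi1), TTGCNNAA, a motif bound by C/EBP factors, and the ETS-IRF composite element, bound by PU.1 with IRF8. Over all 32851 windows of the same length, 23.3% held the PU.1 core, 9.56% the C/EBP motif and 2.30% the composite. The Cd68 window held 1 PU.1 core and 1 C/EBP motif, the C/EBP motif lying 43 to 36 bases before the start. The Clec4e window held a PU.1 core on each strand of the window. It also held a C/EBP motif on the reverse strand of the window, 66 to 59 bases before the start, and none of these matches overlapped. Of the 3 Tmem176b windows, 1 held 2 PU.1 cores. The remaining windows, those of Lyz2, Ms4a6b, Ms4a6c and the other two of Tmem176b, held none of the 3 motifs. These matches describe letters and are no evidence of binding.

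Values are log2 CPM, the log2 of counts scaled to a common library total, as deposited by the authors. The libraries had been brought to nearly one distribution before deposit, with a maximum of 13.37 in each and summed CPM between 999525 and 999562, and depth per library is therefore unknown. As a lower bound on reads, the number of distinct lower values in the same library is called steps here, and the median gene stood 105 to 149 steps up. Steps ranged from 922 to 1770 over the 8 libraries for Lyz2, from 620 to 1553 for Tmem176b, from 255 to 1078 for Ms4a6c, from 132 to 512 for Cd68, from 34 to 336 for Clec4e, from 18 to 193 for Ms4a6b and from 8 to 155 for Adgre1. Levels are compared between libraries and not between genes.

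The Vehicle libraries stood apart from each other. The summed level of 28 neutrophil maturation genes was 3571 CPM in Vehicle replicate 1 and 16005 CPM in Vehicle replicate 2, and Adgre1 and Lyz2 were also lower in replicate 1. Differences of the markers from Vehicle whose direction turned on a Vehicle library are given with and without it. The labels do not state that each library came from a different mouse, so p-values here measure the spread between these libraries, which may be technical. In bulk libraries, fewer cells of a type and less RNA per cell cannot be told apart.

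Cd68, the lysosomal marker, was low in all libraries with AG120. It stood at 4.19 and 4.73 log2 CPM in AG120_AZA libraries, 4.48 and 4.89 in AG120 libraries, 6.42 and 5.92 in AZA libraries, and 6.03 and 5.69 in Vehicle libraries. The highest library with AG120 (4.89) lay below the lowest without it (5.69). Group means were 4.46 ± 0.38 for AG120_AZA, 4.69 ± 0.29 for AG120, 6.17 ± 0.35 for AZA and 5.86 ± 0.24 for Vehicle (SD, n = 2 each). The difference between the AG120_AZA and Vehicle means was -1.40 log2 units with a moderated standard error of 0.30, or 2.64-fold lower with both drugs. The AG120_AZA and AG120 libraries overlapped, and so did the AZA and Vehicle libraries.

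Lysozyme M showed the same order with a wide spread in the groups without AG120. Lyz2 had 7.52 and 7.40 log2 CPM in AG120_AZA libraries, 7.82 and 7.15 in AG120 libraries, 10.34 and 9.19 in AZA libraries, and 8.47 and 10.29 in Vehicle libraries. All 4 libraries with AG120 lay below all 4 without it, but the Vehicle libraries differed by more than the gap between 7.82 and 8.47. The difference of AG120_AZA from Vehicle was -1.92 ± 0.51 log2 units (difference ± moderated SE), and it was -1.01 without Vehicle replicate 2 and -2.82 without Vehicle replicate 1. The difference of AG120_AZA from AZA was -2.30 ± 0.51, or 4.93-fold lower.

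Ms4a6b and Ms4a6c were also below in every library with AG120. Ms4a6b stood at 2.54 and 1.97 log2 CPM in AG120_AZA libraries, 3.10 and 3.73 in AG120 libraries, 4.96 and 4.77 in AZA libraries, and 4.38 and 4.55 in Vehicle libraries. The 4 groups did not overlap for Ms4a6b, with AG120_AZA lowest, then AG120, then Vehicle, then AZA. Ms4a6c stood at 5.29 and 5.54 in AG120_AZA libraries, 5.57 and 5.79 in AG120 libraries, 7.72 and 7.22 in AZA libraries, and 6.58 and 7.53 in Vehicle libraries. For Ms4a6c the AZA and Vehicle libraries overlapped, and the AG120_AZA libraries lay just under the AG120 libraries, at a difference of -0.26 ± 0.31. The difference of AG120_AZA from Vehicle was -2.21 ± 0.38 log2 units for Ms4a6b (4.63-fold lower) and -1.64 ± 0.31 for Ms4a6c (3.11-fold lower).

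Clec4e, the glycolipid receptor Mincle, differed from these in that AG120 alone left it near Vehicle. It had 3.27 and 2.85 log2 CPM in AG120_AZA libraries, 4.20 and 4.98 in AG120 libraries, 5.70 and 5.92 in AZA libraries, and 4.77 and 5.10 in Vehicle libraries. The AG120_AZA libraries were the lowest and the AZA libraries the highest, while the AG120 and Vehicle libraries overlapped. The difference of AG120 from Vehicle was -0.34 ± 0.34 log2 units, and 0.04 when AG120 replicate 1 was left out. The difference of AG120_AZA was -1.88 ± 0.34 from Vehicle (3.67-fold lower), -2.76 ± 0.34 from AZA (6.75-fold lower) and -1.53 ± 0.34 from AG120.

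Tmem176b, the endosomal membrane protein, was again lower in all libraries with AG120. It stood at 6.91 and 6.73 log2 CPM in AG120_AZA libraries, 7.34 and 7.67 in AG120 libraries, 8.99 and 8.53 in AZA libraries, and 9.17 and 8.68 in Vehicle libraries. The AG120_AZA libraries lay below the AG120 libraries, and the AZA and Vehicle libraries overlapped. The difference from Vehicle was -2.10 ± 0.24 log2 units in AG120_AZA (4.30-fold lower) and -1.42 ± 0.24 in AG120, and that of AG120_AZA from AG120 was -0.69 ± 0.24.

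Adgre1, which encodes F4/80, did not follow the other markers. It had 4.38 and 3.65 log2 CPM in AG120_AZA libraries, 4.08 and 4.51 in AG120 libraries, 4.49 and 3.78 in AZA libraries, and 0.56 and 4.42 in Vehicle libraries. A lone library, Vehicle replicate 1, was low, at 8 steps, and the other 7 overlapped between 3.65 and 4.51. The mean differences against Vehicle, 1.52 ± 0.91 for AG120_AZA, 1.81 ± 0.91 for AG120 and 1.64 ± 0.91 for AZA, rested on that library: without it they were -0.40, -0.12 and -0.28. No order of the groups can be read from Adgre1.

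**Figure D1:**
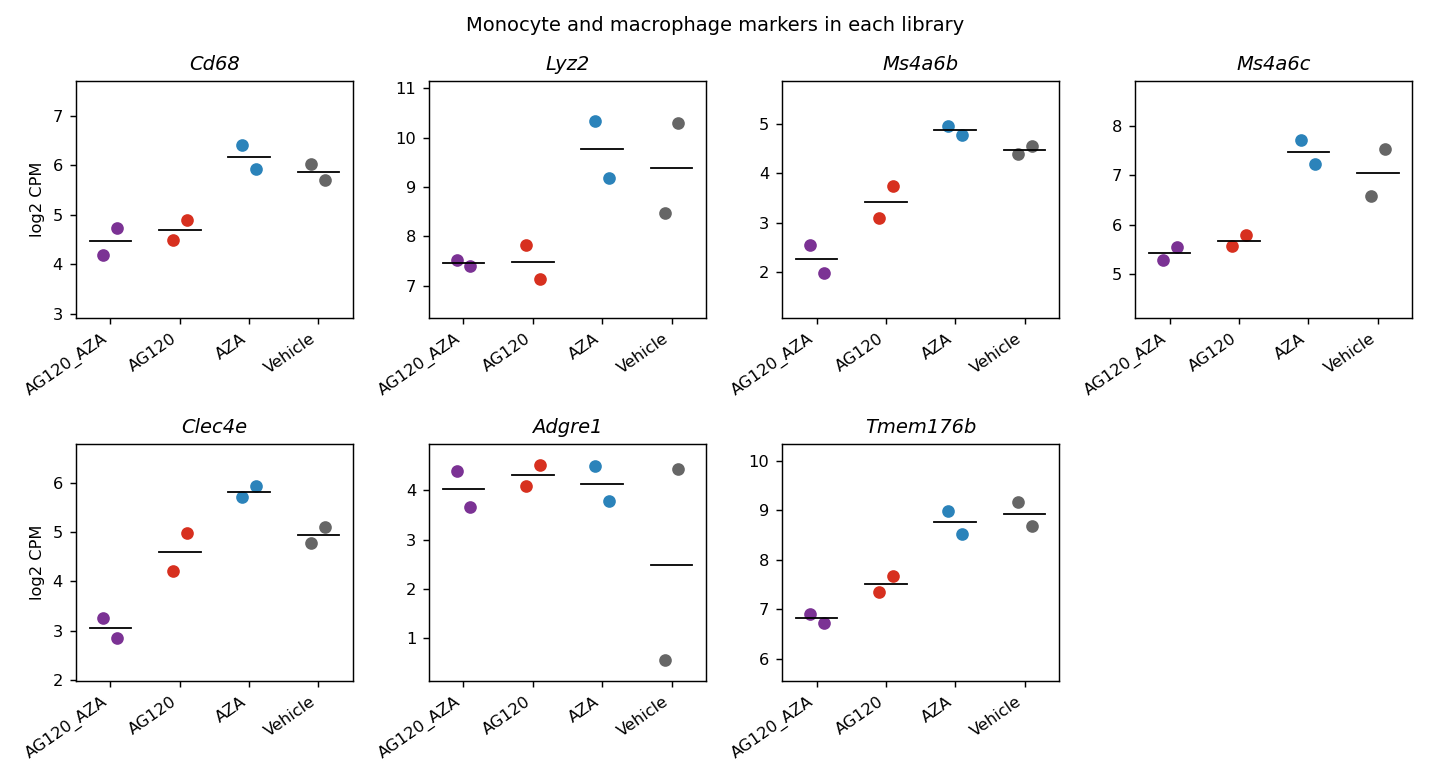
Level of each marker in log2 CPM (vertical axis, of the same span in every panel) in the 2 libraries of each group (points), with the group mean (bar). Libraries with AG120 (purple and red) lie below those without it (blue and grey) for Cd68, Lyz2, Ms4a6b, Ms4a6c and Tmem176b, the AG120 and Vehicle libraries of Clec4e overlap, and Adgre1 is low in Vehicle replicate 1 alone.

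Set side by side, the comparisons gave the following for the 7 markers. Differences were fitted with limma over all 12294 genes, and a gene was called at a Benjamini-Hochberg adjusted p below 0.05. Since the markers were chosen with these values known, the counts of markers called are printed beside the share of all genes called and nothing is read from them. All comparisons with Vehicle share the same 2 Vehicle libraries.

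In AG120_AZA against Vehicle, 6 of 7 markers were lower and Adgre1 was higher, with a median difference of -1.88 over the 7 and 0.02 over all genes. Of the markers, 5 were called lower (the other two were Lyz2 and Adgre1), beside 1.38% of all genes called lower, 1.63% called higher and 3.02% in either direction. With each library left out in turn, the 6 lower markers stayed lower. In AG120 against Vehicle the same 6 were lower, with a median of -1.18, between -0.34 for Clec4e and -1.90 for Lyz2, beside 0.00 for all genes. The Lyz2 difference was -2.80 without Vehicle replicate 1 and -0.99 without Vehicle replicate 2, and that of Ms4a6c, -1.37, was -1.85 and -0.90 without these libraries. Tmem176b was called lower, beside 0.220% of all genes called lower, 0.358% called higher and 0.578% in either direction. In AZA against Vehicle, 6 of 7 were higher and Tmem176b was lower (-0.17), with a median of 0.40. None was called, beside 0.00% of all genes, and the largest of these differences whose sign did not turn on Vehicle replicate 1 was 0.88 ± 0.34 for Clec4e. Without Vehicle replicate 1 the AZA difference was -0.52 for Lyz2, -0.06 for Ms4a6c, -0.28 for Adgre1 and 0.08 for Tmem176b, each of the opposite sign to that over all libraries, and without Vehicle replicate 2 these were 1.29, 0.89, 3.57 and -0.42 in the same order of genes.

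In AG120_AZA against AZA, all 7 were lower, between -0.12 for Adgre1 and -2.76 for Clec4e, with a median of -2.05 beside 0.04 for all genes. The 6 besides Adgre1 were called lower, beside 1.20% of all genes called lower, 1.06% called higher and 2.26% in either direction. In AG120_AZA against AG120, the 7 differences ran from -0.02 for Lyz2 to -1.53 for Clec4e, with a median of -0.28. None was called, beside 0.00% of all genes. Both AG120_AZA libraries lay below both AG120 libraries for Ms4a6b (-1.16 ± 0.38), Ms4a6c, Clec4e and Tmem176b. The share of all genes with that order was not counted, so nothing is read from it. For Cd68, Lyz2 and Adgre1 the groups overlapped, and their differences also changed sign when a library was left out (up to 0.05, 0.31 and 0.08).

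**Figure D2:**
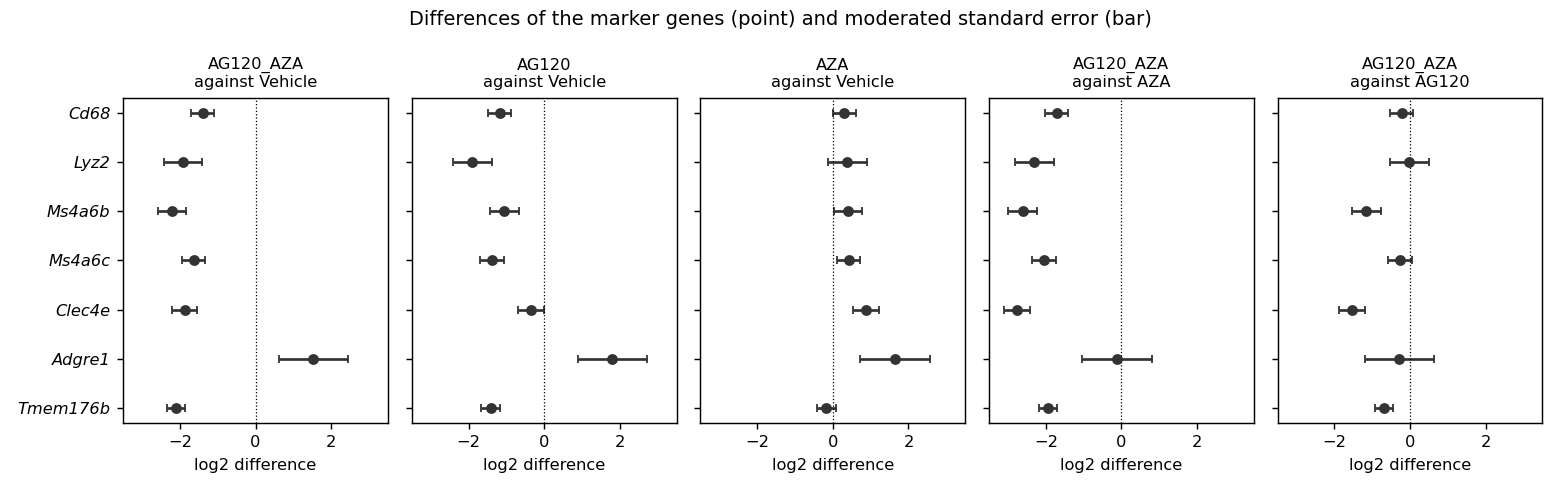
Log2 difference of each marker (point) with its moderated standard error (bar) in 5 comparisons. Cd68, Lyz2, Ms4a6b, Ms4a6c, Clec4e and Tmem176b lie left of 0 in AG120_AZA against Vehicle and against AZA, all differences but that of Tmem176b lie right of 0 in AZA against Vehicle, and the bars of Adgre1, 0.91 log2 units, are the longest.

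For Ms4a6b and Clec4e, the AZA differences with and without AG120 pointed in opposite directions, which is given as values with no test. The signs were also opposite for Cd68, Lyz2, Ms4a6c and Adgre1, whose AZA and Vehicle libraries overlapped. Ms4a6b was 0.40 ± 0.38 higher in AZA than in Vehicle libraries while AG120_AZA minus AG120 was -1.16 ± 0.38, so that the AZA difference with AG120 minus that without it was -1.56 ± 0.54. For Clec4e the AZA difference was 0.88 ± 0.34 without AG120 and -1.53 ± 0.34 with it, and their difference was -2.41 ± 0.48. Both AZA libraries lay above both Vehicle libraries, and both AG120_AZA libraries below both AG120 libraries, for these 2 markers and for 2.62% of all genes. This pattern was shown by 7 of 28 neutrophil maturation genes and by 0 of 10 primary granule genes. A negative interaction value, which asks for less, was found for all 28, with a median of -2.61. All 7 markers had a negative value as well, with a median of -0.68. A negative value was also found for 10 of 10 primary granule genes, with a median of -1.74. The 2 Vehicle libraries, which enter these values, differed in the summed neutrophil maturation genes (3571 and 16005 CPM). Neutrophils also make Clec4e, and the part of these genes in its values was not tested. Over all genes, limma called no interaction of the drugs. An unadjusted p below 0.05 was found for 765 of 12294 genes. With no effect at all, a share of about 0.05 of genes would fall there, so nothing is read from that count.

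Taking AZA and Vehicle libraries together, the 4 libraries with AG120 lay wholly below the 4 without it for 5 of 7 markers, and for 5.99% of all genes. Those 5 were Cd68, with 4.19 to 4.89 log2 CPM with AG120 and 5.69 to 6.42 without, Lyz2 (7.15 to 7.82, and 8.47 to 10.34), Ms4a6b (1.97 to 3.73, and 4.38 to 4.96), Ms4a6c (5.29 to 5.79, and 6.58 to 7.72) and Tmem176b (6.73 to 7.67, and 8.53 to 9.17). Clec4e missed it by the overlap of 1 AG120 library at 4.98 with 1 Vehicle library at 4.77.

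The 7 markers differed in how closely they followed each other. Likeness was taken as the root mean square difference in log2 units over the 8 libraries after each gene's own mean was subtracted, so that a small value means a like pattern. Among the markers, Ms4a6b and Clec4e were closest (0.28), followed by Cd68 and Tmem176b (0.32), Ms4a6b and Tmem176b (0.35), and Cd68 and Ms4a6c (0.36). Adgre1 was far from all the others (1.55 to 1.80). The neighbours Ms4a6b and Ms4a6c stood at 0.45, and Ms4a6c and Lyz2 at 0.42. These values share the 8 libraries and their treatment groups and are a description.

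Outside the 7, among named genes with a mean of at least 3 log2 CPM, the closest to each marker were the following. Cyp4v3 (0.15), Epsti1 (0.19) and Tpd52 (0.22) were closest to Cd68, and Slco3a1 (0.19), Erg (0.19) and Parp8 (0.19) to Tmem176b. B4galt4 was the closest gene to both Ms4a6b (0.27) and Clec4e (0.28), followed by Cd52 (0.28) and Tes (0.28) for Ms4a6b and by Casp4 (0.32) and Lbp (0.34) for Clec4e. Irf5 (0.35), Milr1 (0.36) and Tpd52 (0.36) were closest to Ms4a6c, and Hpse (0.45), Themis2 (0.54) and Rhou (0.55) to Lyz2. For Adgre1 the closest were Gamt (0.64), Pilrb2 (0.65) and Hdc (0.66), with Vehicle replicate 1 the farthest from the mean of Adgre1 itself.

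The relatives of the markers moved in different directions. Of 18 MS4A family genes looked up, 6 were measured. Ms4a2, the beta chain of the high-affinity IgE receptor of mast cells and basophils, stood at 7.61 and 7.29 log2 CPM in AG120_AZA libraries, 7.54 and 6.85 in AG120 libraries, 3.73 and 4.29 in AZA libraries, and 3.66 and 2.94 in Vehicle libraries. It rose by 4.15 ± 0.34 log2 units in AG120_AZA against Vehicle (limma adjusted p = 0.00047), a direction opposite to Ms4a6b and Ms4a6c. Ms4a3, a gene of granulocyte and monocyte progenitors, stood at 9.32 and 8.37 in AG120_AZA libraries, 9.62 and 10.24 in AG120 libraries, 9.82 and 10.00 in AZA libraries, and 9.55 and 9.99 in Vehicle libraries, and passed no comparison. Ms4a6d, the third Ms4a6 gene measured, lay between 0.72 and 3.28 log2 CPM with overlapping groups, and Ms4a4c between -0.62 and 2.97, and neither passed.

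Tmem176a, which lies head to head with Tmem176b and encodes a related membrane protein, was lower in the same libraries. Tmem176a had 6.08 and 6.12 log2 CPM in AG120_AZA libraries, 6.57 and 7.06 in AG120 libraries, 7.88 and 8.07 in AZA libraries, and 8.12 and 7.67 in Vehicle libraries. Every library with AG120 lay below every library without it, as for Tmem176b and for 5.99% of all genes. It fell by 1.79 log2 units in AG120_AZA against Vehicle (limma adjusted p = 0.00393) and by 1.88 against AZA (adjusted p = 0.00376, a call that ended without AZA replicate 1), and its difference of -1.08 in AG120 against Vehicle did not pass (adjusted p = 0.0831). Without limma's mean-variance trend the adjusted p of Tmem176a was 0.0653 against Vehicle and 0.0754 against AZA, so neither call held. The nearest RefSeq starts of the 2 genes lie 109 bases apart on opposite strands. Their annotated spans overlap at these starts and not at the 3′ ends, from which the assay takes its reads. Whether the 2 measurements share reads was not tested.

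Mincle's neighbours and its signalling partners gave no call in any of the 6 comparisons. Of 17 genes looked up, 14 were measured, Clec4e itself among them. Clec4e was called lower in AG120_AZA against Vehicle and against AZA, beside 1.38% and 1.20% of all genes. It was chosen with its values known, so these calls do not set it apart from its relatives. Clec4d, the receptor that pairs with Mincle, stood at 3.88 and 3.68 log2 CPM in AG120_AZA libraries, 3.40 and 3.01 in AG120 libraries, 3.40 and 3.76 in AZA libraries, and 2.97 and 3.55 in Vehicle libraries. Fcer1g, which encodes the Fc receptor gamma chain that carries Mincle's signal, lay between 7.23 and 8.15 in all libraries. Syk, the kinase that this chain recruits, had 6.30 and 6.28 in AG120_AZA libraries, 6.27 and 6.43 in AG120 libraries, 6.80 and 6.66 in AZA libraries, and 7.01 and 6.73 in Vehicle libraries, and did not pass. Its 4 libraries with AG120 lay below the 4 without, as for 5.99% of all genes.

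The other adhesion receptors of the F4/80 family and the other lysosomal membrane proteins showed no called difference. Adgre5, which encodes CD97, lay between 6.20 and 7.27 log2 CPM, with its 4 libraries with AG120 above the 4 without. Adgre4 lay between -0.34 and 4.09 with overlapping groups. Lamp1, a widely used lysosomal membrane marker, lay between 7.80 and 8.60, and Lamp2, Scarb2 and Cd63 likewise passed no comparison. Cd68 was called lower in AG120_AZA against Vehicle and against AZA, beside 1.38% and 1.20% of all genes. Nothing is read from these calls, since Cd68 was chosen with its values known.

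Genes of monocytes and macrophages other than the 7 markers split into risers, fallers and a majority that did not pass. A list of 59 such genes had 46 measured. The list was put together with earlier results of these data known, and its counts stand beside the shares of all genes given above. Defining markers of tissue macrophages (Mrc1, Cd163, Msr1, Mertk and Timd4, among the 13 left) have no row in the table used here, while Csf1r, the receptor for the macrophage growth factor CSF1, and Tyrobp, an adaptor of myeloid receptors, were present in every library. Fcgr4, C1qc, Lgmn and Cd300c2 were at the lowest value in at least 1 library.

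In AG120_AZA against Vehicle, 6 of the 46 fell, 3 rose and 37 did not pass in limma, with a median of -0.12 over the list beside 0.02 over all genes. These 9 calls became 1 without AG120_AZA replicate 2, 4 without Vehicle replicate 2 and 0 in a fit without limma's mean-variance trend. Tgfbi, an extracellular matrix protein of monocytes and macrophages, stood at 2.80 and 3.89 log2 CPM in AG120_AZA libraries, 3.96 and 3.96 in AG120 libraries, 5.54 and 6.31 in AZA libraries, and 5.71 and 6.34 in Vehicle libraries, and fell by 2.68 ± 0.41 (limma adjusted p = 0.00685). Leaving out any of the 8 libraries kept that call. Csf1r had 6.75 and 6.84 in AG120_AZA libraries, 6.59 and 7.61 in AG120 libraries, 8.52 and 8.21 in AZA libraries, and 7.87 and 9.40 in Vehicle libraries, and fell by 1.84 ± 0.44 (limma adjusted p = 0.048).

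The other 4 fallers in that comparison were Lst1, Tyrobp, F13a1 and Tlr2. Lst1, a small leukocyte protein, had 6.22 and 6.29 log2 CPM in AG120_AZA libraries and 7.78 and 7.62 in Vehicle libraries and fell by 1.45 ± 0.23 (limma adjusted p = 0.0077). F13a1, the coagulation factor XIII subunit made by monocytes, fell by 2.81 ± 0.60 (limma adjusted p = 0.0322), and Tlr2, a receptor for bacterial lipoproteins, by 2.70 ± 0.61 (adjusted p = 0.0418). Tyrobp fell by 1.05 ± 0.22 (limma adjusted p = 0.0297). Without Vehicle replicate 1 the difference was -3.85 for F13a1 and -2.61 for Csf1r, and without Vehicle replicate 2 it was -1.76 and -1.07. The calls of F13a1 and Csf1r ended when any of 5 libraries was left out (Vehicle replicate 2 or either AZA or AG120_AZA library), and that of Tlr2 ended with each library left out but AZA replicate 2. The call of Tyrobp ended without either Vehicle library or without AG120_AZA replicate 2, and that of Lst1 without AG120_AZA replicate 2.

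The 3 risers were Ccl6, Lgals3 and Axl. Ccl6, a chemokine of myeloid cells, stood at 5.45 and 4.93 log2 CPM in AG120_AZA libraries, 4.72 and 4.51 in AG120 libraries, 4.25 and 4.10 in AZA libraries, and 3.33 and 2.43 in Vehicle libraries, with no overlap of groups, and rose by 2.31 ± 0.37 (limma adjusted p = 0.00846). Lgals3, which encodes the lectin galectin-3, stood at 5.72 and 5.23 in AG120_AZA libraries, 5.35 and 4.06 in AG120 libraries, 5.19 and 4.83 in AZA libraries, and 2.91 and 3.16 in Vehicle libraries, and rose by 2.44 ± 0.41 (limma adjusted p = 0.0116). Axl, a receptor kinase that binds dying cells through its ligand, had 4.69 and 5.12 in AG120_AZA libraries, 3.98 and 3.52 in AG120 libraries, 3.60 and 4.90 in AZA libraries, and 3.03 and 2.27 in Vehicle libraries, and rose by 2.26 ± 0.47 (limma adjusted p = 0.0304). All 3 were lowest in the Vehicle libraries. Without AG120_AZA replicate 2 none of the 3 passed, and Lgals3 was also lost without Vehicle replicate 1 and Axl without Vehicle replicate 2.

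**Figure D3:**
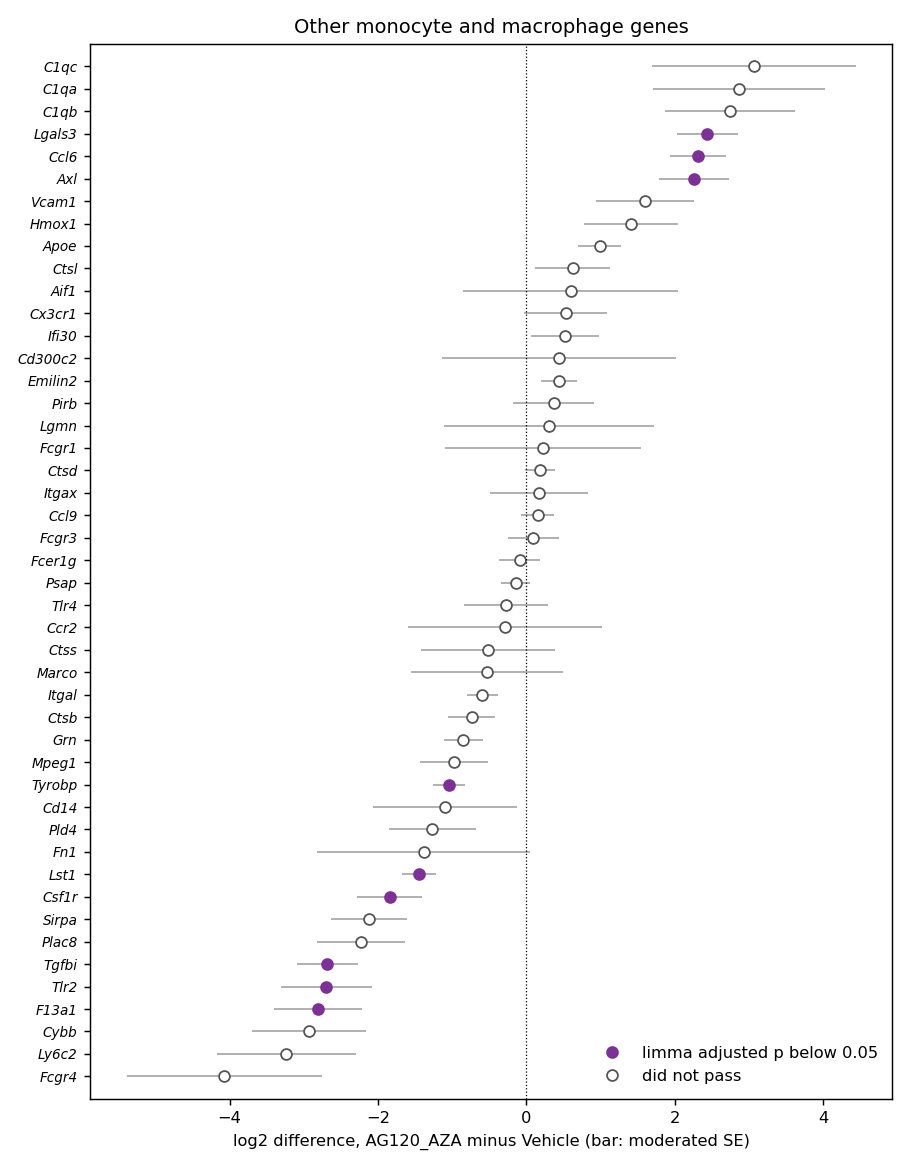
Log2 difference between AG120_AZA and Vehicle libraries (horizontal axis, bars are moderated standard errors) for the 46 monocyte and macrophage genes other than the 7 markers. Filled points passed limma at an adjusted p below 0.05: Lgals3, Ccl6 and Axl to the right of 0, and Tyrobp, Lst1, Csf1r, Tgfbi, Tlr2 and F13a1 to the left.

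With AG120 alone against Vehicle, Lst1 was the 1 gene of the 46 that passed, with 6.40 and 6.63 log2 CPM in AG120 libraries and 7.78 and 7.62 in Vehicle libraries, and fell by 1.19 ± 0.23 (limma adjusted p = 0.0474). Its call ended with each library left out but AZA replicate 1, with the replicate block (limma adjusted p = 0.0608) and without the trend (adjusted p = 0.210). The next genes did not pass: the difference was -2.07 ± 0.41 for Tgfbi (limma adjusted p = 0.0548), 1.73 for Ccl6 (adjusted p = 0.0786) and 1.67 for Lgals3 (adjusted p = 0.111). The median over the list was -0.17.

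Azacitidine alone against Vehicle gave no call in the list or over all genes, where limma left 432 genes with an unadjusted p below 0.05 and 8 of the 46 were among them. The 4 with the smallest p were all higher: Lgals3 by 1.97 ± 0.41 (limma adjusted p = 0.701), Axl by 1.59, Ctsl by 1.43 and Ccl6 by 1.29. The median over the list was 0.08.

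In AG120_AZA against AZA, 2 of the 46 fell and none rose, with a median of -0.64. Tgfbi fell by 2.58 ± 0.41 (limma adjusted p = 0.0109), and Grn, which encodes the lysosomal protein progranulin, by 1.13 ± 0.26 (adjusted p = 0.0492). Grn stood at 7.15 and 7.25 log2 CPM in AG120_AZA libraries and 8.21 and 8.45 in AZA libraries, and its call ended without any 1 of those 4 libraries, while that of Tgfbi ended without either AZA library. The difference was -2.52 for F13a1 (limma adjusted p = 0.0546) and -2.10 for Sirpa, an inhibitory receptor that binds CD47 (adjusted p = 0.0588), and neither passed. The Sirpa difference was -1.21 without AG120_AZA replicate 2 and -2.98 without AG120_AZA replicate 1.

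In AG120_AZA against AG120 no gene of the list passed and none of all genes did, with 1237 genes at an unadjusted p below 0.05 by limma and 12 of the 46 among them. The 4 smallest p belonged to Plac8 (-2.48 ± 0.59), F13a1 (-1.57), Fcgr4 (-3.43) and C1qb (2.26). Leaving out 1 library moved Plac8 to between -3.56 and -1.40, Fcgr4, which was at the lowest value in at least 1 library, to between -6.25 and -0.60, and C1qb to between 0.93 and 3.59. C1qb, a chain of complement C1q made by macrophages, stood at 3.83 and 3.83 log2 CPM in AG120_AZA libraries, 2.90 and 0.24 in AG120 libraries, 2.45 and 2.97 in AZA libraries, and 2.10 and 0.08 in Vehicle libraries, so both AG120_AZA libraries were the highest. For the interaction of the drugs no gene of the list passed either. The value for Cd14, the co-receptor for lipopolysaccharide, was -4.64 ± 1.37 (-2.90 without Vehicle replicate 1 and -6.38 without Vehicle replicate 2), with -0.17 and 1.27 log2 CPM in AG120_AZA libraries, 2.36 and 2.59 in AG120 libraries, 4.90 and 3.82 in AZA libraries, and -0.09 and 3.39 in Vehicle libraries.

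Across all libraries, 11 of the 46 genes lay wholly lower in the 4 libraries with AG120, beside 5.99% of all genes. These were Csf1r, F13a1, Tyrobp, Lst1, Psap, Grn, Mpeg1, Sirpa, Pld4, Itgal and Tgfbi. Apoe and Ccl6 lay wholly higher, beside 984 of the 12294 genes. The pattern shown by 5 of the 7 markers was thus also present in part of the list, and not in its majority.

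Transcription factors that direct monocyte formation were measured for 15 of 18 genes looked up. Irf8, required for monocyte and dendritic cell formation in the mouse, had 4.30 and 4.07 log2 CPM in AG120_AZA libraries, 3.33 and 3.52 in AG120 libraries, 5.32 and 5.39 in AZA libraries, and 5.99 and 7.23 in Vehicle libraries. It fell by 2.42 in AG120_AZA against Vehicle (limma adjusted p = 0.00729, a call that ended without AG120_AZA replicate 2) and by 3.19 in AG120 against Vehicle (adjusted p = 0.00673), and the call with AG120 alone held with each of the 8 libraries left out in turn. Without the trend Irf8 passed in neither (limma adjusted p = 0.0805 in AG120_AZA and 0.104 in AG120). Spi1, which encodes PU.1, had 7.53 and 7.03 in AG120_AZA libraries, 7.86 and 8.84 in AG120 libraries, 8.64 and 8.54 in AZA libraries, and 8.48 and 8.91 in Vehicle libraries, and fell by 1.41 in AG120_AZA against Vehicle (limma adjusted p = 0.0347). That call of Spi1 ended without any 1 of 5 libraries (both Vehicle, both AZA and AG120_AZA replicate 2) and without the trend (limma adjusted p = 0.183).

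Irf5, which drives inflammatory gene expression in macrophages, differed by -1.28 in AG120_AZA against Vehicle and did not pass (limma adjusted p = 0.0832). The median over the 15 regulators was -1.20 in AG120_AZA against Vehicle, -0.33 in AG120 against Vehicle and 0.09 in AZA against Vehicle. No regulator passed in AG120_AZA against AZA, where 14 of 15 were lower with a median of -1.17, or in the other comparisons.

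Genes of other cells moved alongside the markers, and the sort itself sets what could be seen. Itgam, which encodes CD11b, stood at 3.28 and 2.85 log2 CPM in AG120_AZA libraries, 2.50 and 3.76 in AG120 libraries, 4.53 and 3.19 in AZA libraries, and 2.10 and 4.34 in Vehicle libraries, with overlapping groups and no call. Kit had 4.51 and 4.26 in AG120_AZA libraries, 5.15 and 5.84 in AG120 libraries, 6.65 and 5.54 in AZA libraries, and 6.31 and 6.59 in Vehicle libraries. It fell by 2.06 in AG120_AZA against Vehicle (limma adjusted p = 0.0148), in the same direction as 6 of the markers, and that call ended without Vehicle replicate 2, without AG120_AZA replicate 2 and without the trend (limma adjusted p = 0.122).

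Of the neutrophil maturation genes, 28 of 28 were measured, and their summed level was 1435 to 3945 CPM in AG120_AZA libraries, 4822 to 7979 in AG120 libraries, 14379 to 19504 in AZA libraries, and 3571 to 16005 in Vehicle libraries. In AG120_AZA against AZA 9 of them fell, beside 1.20% of all genes called lower, with a median of -2.85 over the 28. Stfa3, Ngp, Stfa2 and Lcn2 had the smallest p. None of these 4 passed without the trend (limma adjusted p from 0.102 to 0.141) or without AZA replicate 1. The summed level of the 7 markers was 372 to 398 CPM in AG120_AZA libraries, 498 to 502 in AG120 libraries, 1263 to 2207 in AZA libraries, and 1143 to 1973 in Vehicle libraries. Lyz2 and Clec4e are made by neutrophils as well, and the part that neutrophil genes had in the markers' differences was not tested.

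The summed stem and progenitor genes were also lower in the libraries with AG120 than in those without. Of 11 genes, 6 lay wholly lower with AG120, beside 5.99% of all genes. Spink2 went the other way, by 4.42 in AG120 against Vehicle and 1.87 in AG120_AZA against AZA, and passed in neither. The 11 measured of 15 summed to 300 to 329 CPM in AG120_AZA libraries, 378 to 440 in AG120 libraries, 827 to 1083 in AZA libraries, and 1024 to 1290 in Vehicle libraries. In AG120_AZA against Vehicle 5 of them fell, beside 1.38% of all genes called lower, Cd34 by 3.36 and Cd93 by 2.14 among them. Without the trend the limma adjusted p was 0.0334 for Cd34 and 0.0552 for Cd93. Genes of mast cells, basophils and eosinophils, 18 of 22 measured, ran the other way in sum. In AG120_AZA against AZA, 11 of the 18 genes were higher and 7 lower, with a median of 0.59. They summed to 2638 to 4123 CPM in AG120_AZA libraries, 3985 to 4233 in AG120 libraries, 1765 to 1832 in AZA libraries, and 1176 to 1524 in Vehicle libraries. In AG120_AZA against Vehicle 5 of them rose, beside 1.63% of all genes called higher.

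The 20 erythroid genes summed to 4726 to 4800 CPM in AG120_AZA libraries, 1007 to 2501 in AG120 libraries, 2159 to 5031 in AZA libraries, and 1851 to 2723 in Vehicle libraries. Of these, 10 rose in AG120_AZA against Vehicle, beside 1.63% of all genes called higher. The sum hides a split with AG120 alone, where 14 of the 20 were higher than in Vehicle and 6 lower, with a median of 1.18. There 5 were called higher, beside 0.358% of all genes. The globin genes Hbb-bs (-1.84) and Hba-a1 (-1.67) were among the lower and did not pass. For the 46 other monocyte and macrophage genes the sums were 2723 to 3235 CPM in AG120_AZA libraries, 3803 to 5159 in AG120 libraries, 4572 to 5302 in AZA libraries, and 3910 to 6599 in Vehicle libraries. Their AG120_AZA libraries were the lowest, while the AG120 libraries overlapped the Vehicle libraries. Dendritic cell genes, 7 of 17 measured, summed to between 29.7 and 47.8 CPM in every library. In AG120_AZA against AZA, 3 of the 7 were higher and 4 lower. Zbtb46 was called higher there, by 2.72 (limma adjusted p = 0.0355), beside 1.06% of all genes. B cell genes were measured for 2 of 9, T and NK cell genes for 3 of 11, and stromal and endothelial genes for 1 of 12, Pecam1.

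**Figure D4:**
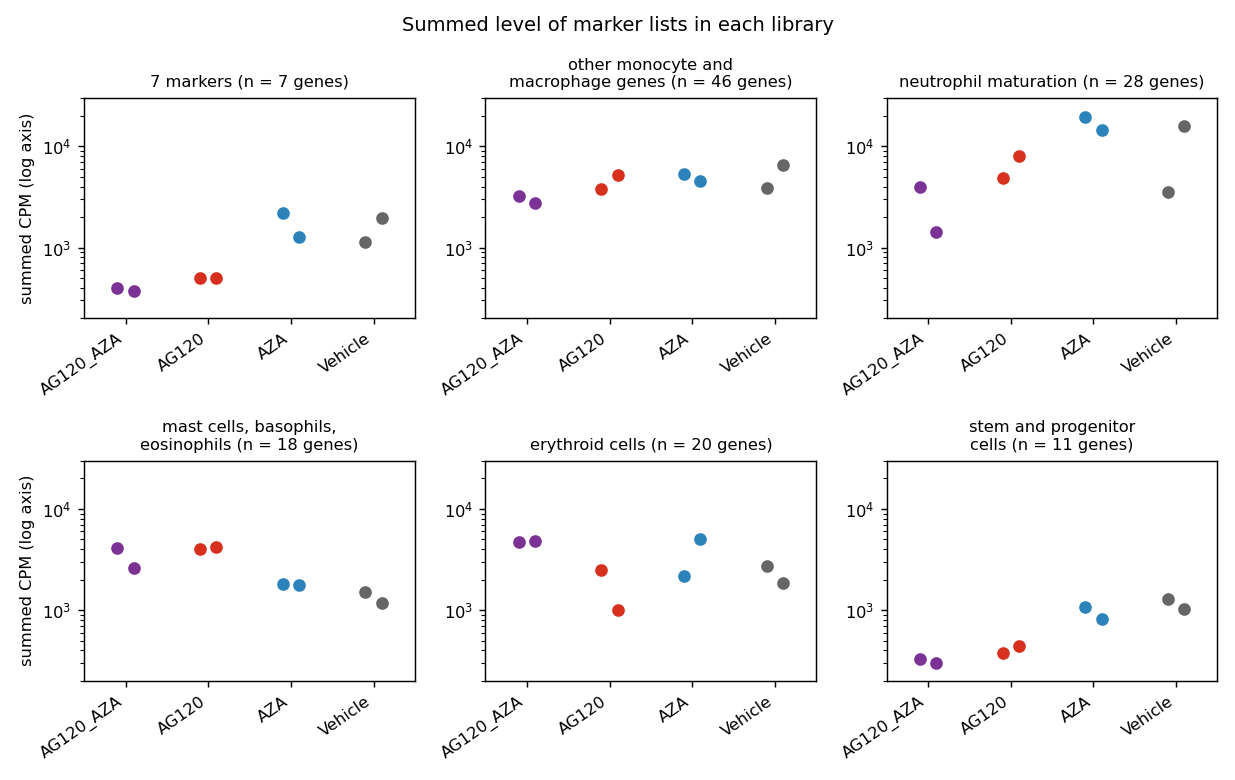
Summed CPM of 6 gene lists in each library (points, log axis), by group. The 7 markers and the stem and progenitor genes are lower in all AG120_AZA and AG120 libraries than in AZA and Vehicle libraries, the mast cell, basophil and eosinophil genes are higher in them, and neutrophil genes are highest in the AZA libraries and in Vehicle replicate 2 (16005 CPM).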

How the data were processed

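Gene expression was measured by QuantSeq 3′ sequencing in 8 libraries of sorted I1DN leukemic progenitors, 2 per group. The submitters' processing notes name HISAT2 2.1.0 and the mm10 build, featureCounts from Subread 1.6.3, bcl2fastq 2.17.1.14 and cutadapt 1.14, and, in R 3.6.2, edgeR 3.28.1 beside limma 3.42.2. The authors deposited log2 CPM values made by voom for 12294 genes, and these log2 values were used as deposited, with no filter and no further scaling. Since the libraries share one distribution, a change that touches most genes would be scaled away, and voom's observation weights were not used. Libraries were grouped by their labels.

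A model of 4 group means was fitted to all genes with limma 3.58.1 in R 4.3.3 (lmFit, eBayes with a mean-variance trend, 4 residual and 7.06 prior degrees of freedom). Two-sided p-values received Benjamini-Hochberg adjustment over the 12294 genes, and a gene was called at an adjusted p below 0.05. The fit was tested on simulated data. The markers, gene lists and motifs were chosen with earlier results of these data known. Named genes are the 7 markers, the called genes of the list of other monocyte and macrophage genes (or the 4 with the smallest p), up to 4 of each other list, the measured relatives of the markers, Kit and Itgam, and the 3 genes most like each marker. Alternatives were a fit without the trend, the 8478 genes with a mean of at least 3 log2 CPM, a replicate block, and each library left out.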

Additional observations from a re-analysis of the deposited data

Results flagged for a closer look

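The AZA difference ran in opposite directions with and without AG120 for Ms4a6b and Clec4e. For these genes, both AZA libraries lay above both Vehicle libraries, and both AG120_AZA libraries lay below both AG120 libraries. The signs were also opposite for Cd68, Lyz2, Ms4a6c and Adgre1, whose AZA and Vehicle libraries overlapped. The AZA difference with AG120 minus that without it was -1.56 log2 units for Ms4a6b and -2.41 for Clec4e. The difference was not tested for Ms4a6b and Clec4e, since they were chosen with their values known, and 2.62% of all genes showed the same non-overlapping pattern. The same non-overlapping pattern was found in 7 of 28 neutrophil maturation genes and in 0 of 10 primary granule genes. A negative interaction value asks for less than that pattern. All 28 neutrophil maturation genes had one, with a median of -2.61, as did 10 of 10 primary granule genes, with a median of -1.74. All 7 markers had one as well, with a median of -0.68. The 2 Vehicle libraries, which enter these values, differed in the summed neutrophil maturation genes (3571 and 16005 CPM).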

How the results depend on the processing

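The count of genes called by limma depended on the mean-variance trend and on single libraries. Without the trend, 43 genes were called in AG120_AZA against Vehicle in place of 371, 9 in AG120_AZA against AZA in place of 278, 0 in AG120 against Vehicle in place of 71, and 2 in AZA against Vehicle in place of 0, and no gene of the 46 other monocyte and macrophage genes was called in any of them (0 in place of 9, 2 and 1). Among the 8478 genes with a mean of at least 3 log2 CPM, 1 list gene in place of 2 was called in AG120_AZA against AZA, Tgfbi without Grn. With each library left out in turn, the counts over all genes ran from 37 (without AG120_AZA replicate 2) to 727 (without AG120_AZA replicate 1) in AG120_AZA against Vehicle, from 14 (without AZA replicate 1) to 594 in AG120_AZA against AZA, from 8 (without Vehicle replicate 1) to 103 in AG120 against Vehicle, from 0 to 1 in AZA against Vehicle, from 0 to 213 in AG120_AZA against AG120, and from 0 to 29 for the interaction. For the list they ran from 1 to 10, 0 to 7, 0 to 1, 0 to 0, 0 to 3 and 0 to 1 in the same comparisons. The cause of these shifts was not tested.

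Replicate numbers do not mark a shared batch in the labels, and same-numbered libraries did not deviate together in all pairs of groups (correlations across genes from -0.111 to 0.194). With the replicate block, 370 genes were called in AG120_AZA against Vehicle, 213 in AG120_AZA against AZA and 60 in AG120 against Vehicle.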
